A study of Mus musculus with 15 samples.

Results

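The transcripts described here encode 10 proteins that keep maternal mRNA stored or repressed in the growing and fully grown mouse oocyte: Zar1, Zar1l, Ybx2, Cpeb1, Ddx6, Lsm14b, Eif4enif1, Patl2, Igf2bp2 and Igf2bp3. They were chosen by name for the roles of their proteins, and the 10 are among 53700 genes in the count tables. Polyadenylated RNA was sequenced from oocytes at the germinal vesicle (GV) stage, the fully grown stage before meiosis resumes, in 15 libraries made from 15 oocytes each. Knockout (KO) oocytes carried Padi6 -/- on the FVB/N background in 3 replicates, and their controls were Padi6 heterozygotes (het, +/-) of the same background in 3 replicates. Tle6 -/- oocytes on the C57BL/6J background came in 4 biological replicates, and their controls were Tle6 +/- heterozygotes in 2. Every control was therefore a heterozygote and not a wild type. Tle6 KO replicate 4 and both Tle6 het replicates were each sequenced as technical libraries A and B, and the counts of the pair were added before testing. A technical library is named below by its replicate and letter, so that 2A is library A of replicate 2. The labels give neither the age of the mice nor the design of the alleles, nor whether replicates came from separate animals, so a p-value refers to the spread of these replicates, which may be partly technical.

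A fully grown oocyte makes little new RNA, and the transcripts it needs for meiosis and for the first divisions of the embryo are laid down earlier and kept from translation. ZAR1 and ZAR1L are zinc-finger RNA-binding proteins needed for this store, and YBX2 (also called MSY2) is an abundant germ-cell RNA-binding protein that stabilises it. CPEB1 binds U-rich elements in 3′ untranslated regions and sets the length of the poly(A) tail. DDX6, an RNA helicase, LSM14B, PATL2 and EIF4ENIF1 (4E-T, which binds the cap-binding protein eIF4E) belong to repressive complexes related to those of P-bodies. IGF2BP2 and IGF2BP3 bind coding and 3′ regions of target mRNAs and stabilise them. TLE6 belongs to the subcortical maternal complex and PADI6 to the family of enzymes that convert arginine to citrulline, and without either protein the oocyte lacks cytoplasmic lattices, the fibres on which maternal proteins are held.

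Deposited gene counts ran from 30100177 to 74947533 per library. Padi6 transcripts stood at 19.3 to 26.6 CPM (gene counts per 1e6, or counts-per-million) in the Padi6 KO libraries, against 1737 to 1852 CPM in the Padi6 het libraries. Tle6 transcripts stood at 61.5 to 98.2 CPM in the Tle6 KO libraries, against 234 to 600.3 CPM in the Tle6 het libraries, so neither target overlapped between KO and het. Of 10 oocyte markers, 9 were at 1 CPM or more in every library, and the summed oocyte markers were at 24859.5 to 26091 CPM in Padi6 KO, 23174 to 24837 CPM in Padi6 het, 16559.7 to 19775 CPM in Tle6 KO and 12787 to 22108 CPM in Tle6 het libraries. The 13 granulosa and cumulus cell markers summed to 564 to 650.0 CPM in Padi6 KO, 604 to 699.5 CPM in Padi6 het, 338 to 639.5 CPM in Tle6 KO and 362 to 607 CPM in Tle6 het libraries. Among these, Amh, Ptx3 and Tnfaip6 were at 0 in all 4 Tle6 het libraries. Tle6 het libraries 2A and 2B, which the labels give as technical libraries of 1 replicate, stood apart from each other. They differed by over 1.5-fold in 54.9% of 9487 genes and in 7 of the 10 storage genes (r = 0.909 over log2 CPM), whereas 1A and 1B of Tle6 het and 4A and 4B of Tle6 KO differed so in none of the storage genes (r = 0.999 and r = 0.998). Whether 2A and 2B hold RNA of the same oocytes was not tested, so the summed values of Tle6 het replicate 2, the n of 2 for Tle6 het and the tests on them rest on the label. Fold changes, counts and orders that use this replicate are therefore also given without 2A and without 2B.

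Promoter sequences are shown for Igf2bp3, the only member called in the Padi6 line, where leaving out any replicate lost the call. They are also shown for Lsm14b and Cpeb1, whose levels differed most between the lines, and for the paralogs Zar1 and Zar1l. Each runs 5′ to 3′ on the gene's strand from 250 bases before to 50 after the annotated start, from RefSeq on GRCm38.p6, a C57BL/6J reference, which is the background of the Tle6 line and not of the Padi6 line. Igf2bp3 is at chr6:49214905-49215204 (minus strand), Lsm14b at chr2:180024737-180025036 (plus), Cpeb1 at chr7:81454709-81455008 (minus), Zar1 at chr5:72581035-72581334 (minus) and Zar1l at chr5:150518110-150518409 (minus). Capitals mark, on either strand, the E-box CANNTG, bound by helix-loop-helix factors such as FIGLA, the element TAATTG, bound by the oocyte homeobox factor NOBOX, and TATAAA.
Igf2bp3: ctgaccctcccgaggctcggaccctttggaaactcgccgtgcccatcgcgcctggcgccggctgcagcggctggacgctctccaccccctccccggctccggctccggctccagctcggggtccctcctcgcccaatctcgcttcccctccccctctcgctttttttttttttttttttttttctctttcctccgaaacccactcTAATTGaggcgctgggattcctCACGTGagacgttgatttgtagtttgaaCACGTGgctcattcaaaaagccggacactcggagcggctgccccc
Lsm14b: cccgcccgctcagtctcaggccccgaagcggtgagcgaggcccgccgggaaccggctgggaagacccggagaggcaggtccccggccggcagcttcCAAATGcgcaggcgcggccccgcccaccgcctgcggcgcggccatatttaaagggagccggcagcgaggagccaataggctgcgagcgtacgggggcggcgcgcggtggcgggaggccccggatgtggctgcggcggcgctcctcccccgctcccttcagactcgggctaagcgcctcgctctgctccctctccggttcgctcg
Cpeb1: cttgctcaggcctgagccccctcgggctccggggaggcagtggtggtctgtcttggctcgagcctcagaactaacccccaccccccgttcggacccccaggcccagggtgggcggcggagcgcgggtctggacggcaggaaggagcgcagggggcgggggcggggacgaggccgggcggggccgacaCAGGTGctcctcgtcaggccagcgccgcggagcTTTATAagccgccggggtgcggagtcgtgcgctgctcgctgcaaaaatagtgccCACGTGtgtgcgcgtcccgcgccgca
Zar1: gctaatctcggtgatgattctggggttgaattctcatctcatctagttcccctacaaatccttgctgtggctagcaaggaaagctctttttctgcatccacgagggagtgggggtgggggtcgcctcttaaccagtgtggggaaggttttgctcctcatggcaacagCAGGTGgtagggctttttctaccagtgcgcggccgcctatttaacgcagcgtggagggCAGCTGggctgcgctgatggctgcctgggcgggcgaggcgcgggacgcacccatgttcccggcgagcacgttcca
Zar1l: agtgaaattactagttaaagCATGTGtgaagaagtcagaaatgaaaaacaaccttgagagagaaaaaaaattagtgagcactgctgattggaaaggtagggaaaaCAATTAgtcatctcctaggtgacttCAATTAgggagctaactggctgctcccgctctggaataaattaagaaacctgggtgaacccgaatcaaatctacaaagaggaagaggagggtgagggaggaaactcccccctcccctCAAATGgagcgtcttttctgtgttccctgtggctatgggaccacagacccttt
A promoter was listed for 9 of the 10 members. TAATTG was found in 2 of these 9, 1 time in Igf2bp3 and 2 times in Zar1l, against 8.0% of 32851 mouse promoters of the same length. An E-box was found in 8 of 9, against 72.3% of promoters, and TATAAA in 1 of 9, in Cpeb1, against 13.6%. Each member was counted once, if any of its listed promoters held the motif, whereas the shares are of single promoters. Ybx2 had promoters at 2 starts and Eif4enif1 at 4, and only the first of each held an E-box. Counts of members and shares of promoters are therefore not like for like. No marked motif overlapped another in the sequences shown. These matches describe the letters in the window and nothing about binding.

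The 10 transcripts spanned a wide range of abundance. Per kilobase of annotated exon, averaged over the 12 biological replicates, Cpeb1 stood at 1162 CPM per kb and Lsm14b at 548 CPM per kb. Eif4enif1, Zar1l, Zar1 and Igf2bp2 followed at 169, 142, 135 and 114 CPM per kb. Patl2 and Ybx2 were at 36.0 and 31.3 CPM per kb, and Igf2bp3 and Ddx6 were lowest, at 6.33 and 3.03 CPM per kb. The first 2 and the last 4 kept their places when the length of the principal transcript was used in place of all annotated exons, while Zar1 moved to place 3 at 328 CPM per kb and Zar1l to place 6 at 142 CPM per kb. The middle places also differed between the lines. By exon length, Eif4enif1 was in place 5 in both Padi6 groups, at 125 CPM per kb in Padi6 KO and 132 CPM per kb in Padi6 het, below Zar1 at 147 and 164 CPM per kb. It was in place 3 in both Tle6 groups, at 178 CPM per kb in Tle6 KO and 271 CPM per kb in Tle6 het, above Zar1 at 116 and 112 CPM per kb.

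**Figure D1:**
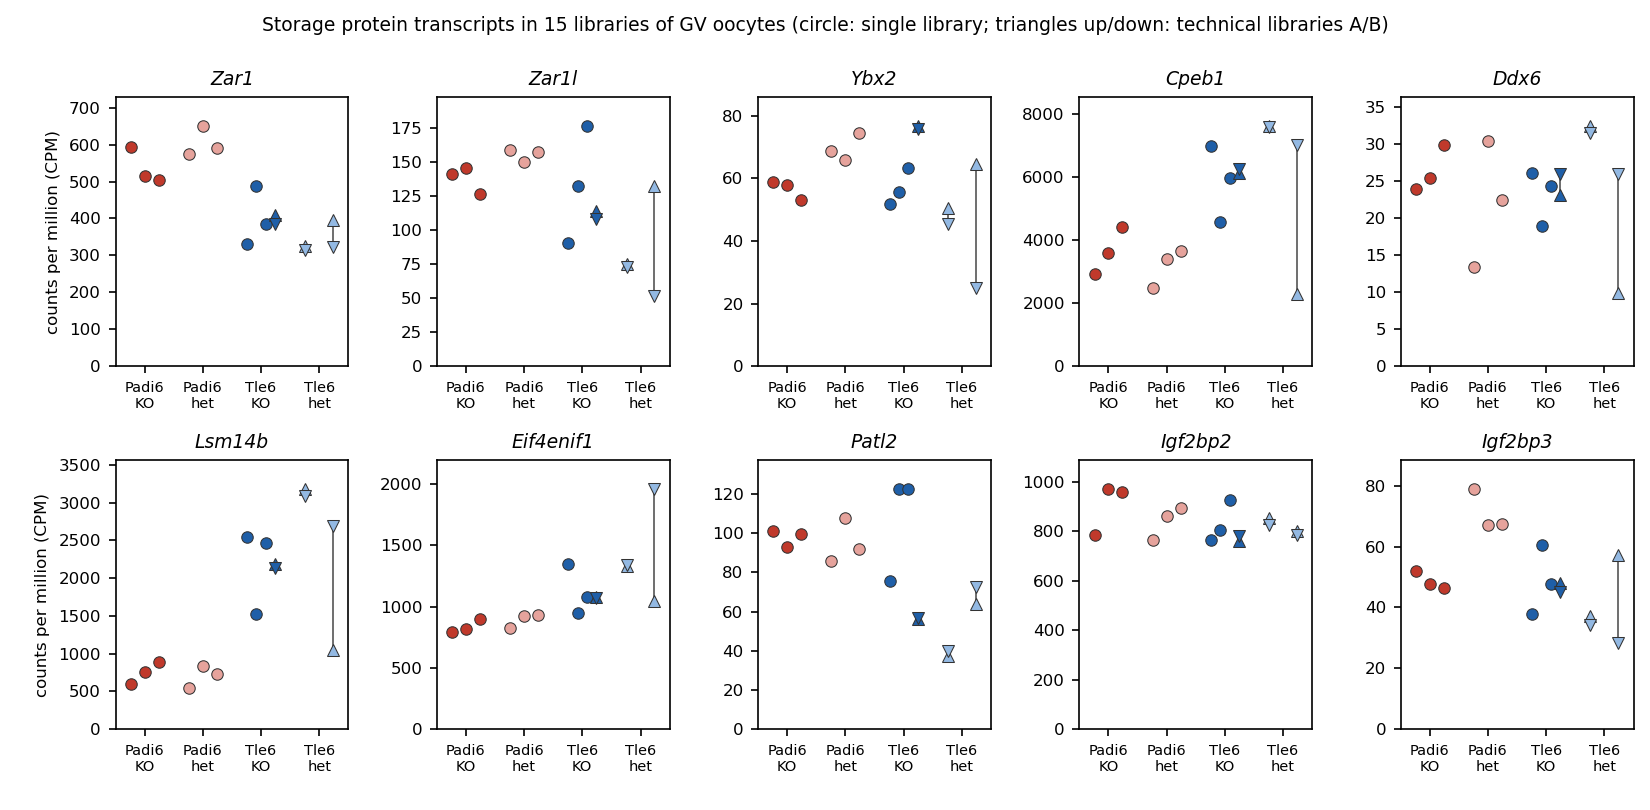
Level of each storage transcript in every library, in CPM on a linear axis from 0, with KO left of het in each line. Circles are replicates with 1 library, and triangles pointing up and down are technical libraries A and B of 1 replicate, joined by a line. Igf2bp3 lies at 46.4 to 52.1 CPM in Padi6 KO, below the 67.2 to 79.0 CPM of Padi6 het, and Lsm14b and Cpeb1 lie higher in the Tle6 KO than in the Padi6 KO libraries.

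In the Padi6 line the question is which storage transcripts differ in oocytes that lack PADI6. Igf2bp3 was called lower in KO, near the threshold, and the other 9 did not pass the test (edgeR quasi-likelihood test, Benjamini-Hochberg adjustment over 18228 genes). This 1 of 10 stands beside 2.41% of all genes called in either direction and 0.724% called lower. At an unadjusted p under 0.05 there were 2 of 10, against 18.6% of all genes. Both the median log2 fold change of the 10 and that of all genes were -0.01. The granulosa and cumulus sums overlapped in this line, at 564 to 650.0 CPM in Padi6 KO and 604 to 699.5 CPM in Padi6 het libraries. Serpine2 made up 94.2 to 95.5% of this sum in Padi6 KO and 94.2 to 94.5% in Padi6 het, so it follows 1 gene. Without Serpine2 it was 28.0 to 37.6 CPM in Padi6 KO and 33.4 to 38.6 CPM in Padi6 het, which overlap. The other summed markers differed with genotype. Those of theca and stroma cells were at 4.48 to 7.92 CPM in Padi6 KO and 8.98 to 28.96 CPM in Padi6 het libraries. Those of blood and immune cells were at 27.3 to 30.7 CPM in Padi6 KO and 31.4 to 34.4 CPM in Padi6 het libraries. The oocyte sum was narrowly higher in KO, at 24859.5 CPM or more against 24837 CPM or less in het. Single genes carried these sums: Pecam1 made up 87.8 to 89.3% of the blood and immune sum in Padi6 KO and 87.1 to 90.8% in Padi6 het, and Cyp11a1 made up 44.5 to 66.3% of the theca and stroma sum in Padi6 KO and 59.7 to 80.8% in Padi6 het. Without Cyp11a1 the theca and stroma sum was 1.51 to 4.15 CPM in Padi6 KO and 3.62 to 5.57 CPM in Padi6 het, which overlap. Without Pecam1 the blood and immune sum was 2.94 to 3.76 CPM in Padi6 KO and 3.03 to 4.05 CPM in Padi6 het. Without Ooep, its leading gene, the oocyte sum was 14102 to 17198 CPM in Padi6 KO and 14898 to 16581 CPM in Padi6 het. These overlap too. No single marker passed edgeR's test. At an unadjusted p under 0.05 there were 2 of 10 oocyte, 3 of 9 granulosa and cumulus, 3 of 5 theca and stroma and 0 of 3 blood and immune markers. By point estimate, 4 of 10 oocyte, 8 of 9 granulosa and cumulus, 5 of 5 theca and stroma and 3 of 3 blood and immune markers were lower in KO. Their median log2 fold changes were 0.06, -0.42, -0.96 and -0.09 in that order. DESeq2 called 1 oocyte marker and 3 granulosa and cumulus markers, and limma-voom none. The part of these transcripts in the result was not tested. In bulk oocyte RNA, fewer cells that carry a transcript and less of it per cell cannot be told apart.

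In the Tle6 line the same question is put for oocytes that lack TLE6. None of the 10 passed edgeR's test over 20276 genes, where 1.62% of all genes were called. Eif4enif1 was the only one at an unadjusted p under 0.05, against 19% of all genes. There were 5 without het library 2A (22.4% of all genes) and 1, Patl2, without 2B (13.5%). DESeq2 and limma-voom also called none. The count of adjusted calls was 0 without het library 2A and without 2B as well. The median log2 fold change of the 10 was -0.03, beside 0.06 over all genes. It was -0.10 without 2A (0.08 over all genes) and 0.06 without 2B (0.01). The intervals are wide here, and changes of up to 1.44 on the log2 scale (Patl2) lie within them.

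**Figure D2:**
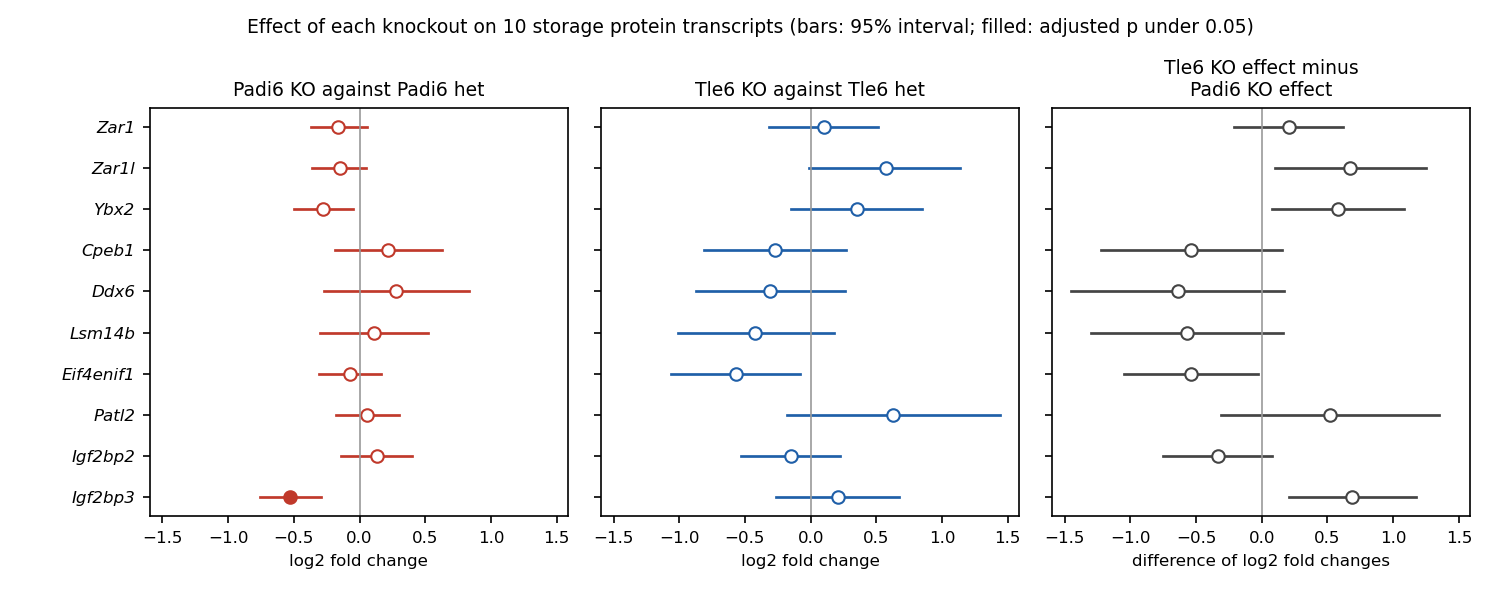
Log2 fold change of each storage transcript in Padi6 KO over Padi6 het (left), in Tle6 KO over Tle6 het (middle), and the difference of these effects, Tle6 minus Padi6 (right). Points are edgeR estimates, bars are 95% intervals, and a filled point has an adjusted p under 0.05. Igf2bp3 in the Padi6 line is the filled point, at -0.53.

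Igf2bp3 (chromosome 6), which encodes an mRNA-stabilising protein of the IGF2BP family, was at 52.1, 47.7 and 46.4 CPM in Padi6 KO replicates 1, 2 and 3, against 79.0, 67.2 and 67.3 CPM in Padi6 het replicates 1, 2 and 3. All KO replicates were below all het replicates, as for 12.1% of all genes tested. With scaling by the trimmed mean of M-values (TMM), it averaged 49.0 ± 1.76 CPM in Padi6 KO and 70.6 ± 6.45 CPM in Padi6 het (SD, n = 3 each). The log2 fold change was -0.53 ± 0.10 (SE; 95% interval -0.76 to -0.29), a fold of 0.694, with an edgeR adjusted p of 0.0347. DESeq2 (adjusted p = 0.000853) and limma-voom (0.0397) also called it. The call was near the threshold: leaving out any of the 6 replicates gave an edgeR adjusted p of 0.0528 to 0.148 with a log2 fold change of -0.57 to -0.45, and a spread shared with the Tle6 line gave 0.2. In the Tle6 line Igf2bp3 was at 37.8, 60.6 and 47.5 CPM in Tle6 KO replicates 1, 2 and 3 and at 48.0 and 45.2 CPM in KO libraries 4A and 4B. It was at 37.3 and 34.2 CPM in Tle6 het libraries 1A and 1B, and at 57.3 and 28.4 CPM in het libraries 2A and 2B. KO and het overlapped, and the log2 fold change was 0.21 ± 0.20 (95% interval -0.26 to 0.67, edgeR adjusted p = 0.623), or 0.33 without het library 2A and 0.00 without 2B.

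The 2 effects on Igf2bp3 differed by 0.69 ± 0.22 on the log2 scale (Tle6 effect minus Padi6 effect, 95% interval 0.21 to 1.17), with an unadjusted p of 0.00817 and an edgeR adjusted p of 0.0999. The difference was thus not called, and it was 0.80 (adjusted p = 0.0564) without het library 2A and 0.52 (0.357) without het library 2B. DESeq2 called it (0.70, adjusted p = 0.0279), as did edgeR without Tle6 KO replicate 1 (0.77, adjusted p = 0.0458).

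Exons of Igf2bp3 share 1529 bases with those of Malsu1, a mitochondrial ribosome assembly factor gene on the opposite strand, and the labels do not say whether reads were counted by strand. Malsu1 was at 25.2 ± 3.70 CPM in Padi6 KO and 23.1 ± 3.64 CPM in Padi6 het (SD, n = 3 each; log2 fold change 0.13 ± 0.16, edgeR adjusted p = 0.724). Malsu1 was not among the called genes. Its count cannot show whether the shared bases affect the count of Igf2bp3, which was not tested.

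The profiles most like that of Igf2bp3 over the 12 biological replicates, after centring each line, were those of Xrcc5, Chdh and Dnmt3l. Their root-mean-square differences from it were 0.091, 0.098 and 0.109 on the log2 scale among 7408 candidate genes, where the profile of Igf2bp3 itself had an SD of 0.232. XRCC5 is the Ku80 subunit of DNA repair, CHDH oxidises choline, and DNMT3L is the cofactor of de novo DNA methylation in oocytes. In Padi6 KO replicates 1, 2 and 3 Xrcc5 was at 124, 109 and 109 CPM, against 178, 162 and 145 CPM in Padi6 het replicates 1, 2 and 3. These genes were chosen for the likeness of their profile, so their order over the groups is a description.

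Igf2bp2 (chromosome 16), the family's other member in the list, did not pass in either line. It was at 787, 971 and 958 CPM in Padi6 KO replicates 1, 2 and 3, against 766, 861 and 895 CPM in Padi6 het replicates 1, 2 and 3, with a log2 fold change of 0.13 ± 0.12 (95% interval -0.14 to 0.40). Tle6 oocytes had 761 to 926 CPM in the KO libraries and 784 to 853 CPM in the het libraries, with a log2 fold change of -0.15 ± 0.17 (95% interval -0.53 to 0.22), or -0.26 without het library 2A and -0.08 without 2B. These library values overlapped between KO and het in both lines, as did the replicates with each line scaled by itself. With TMM scaling over both lines, the Tle6 KO replicates, at 779.8 to 919.5 CPM, were below the het replicates, at 934.9 to 958.8 CPM. They overlapped without 2B. With the Tle6 line scaled by itself, 14.2% of all genes had every KO replicate below both het replicates.

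Of the zinc-finger proteins, Zar1 (chromosome 5) was at 594, 514 and 503 CPM in Padi6 KO replicates 1, 2 and 3, against 576, 650.5 and 592 CPM in Padi6 het replicates 1, 2 and 3. It averaged 540.2 ± 36.4 CPM in Padi6 KO and 602 ± 35.6 CPM in Padi6 het (SD, n = 3 each), with a log2 fold change of -0.16 ± 0.10 (edgeR adjusted p = 0.427). The libraries overlapped. Among Tle6 oocytes Zar1 was at 331, 487 and 384 CPM in KO replicates 1, 2 and 3 and at 408 and 386 CPM in KO libraries 4A and 4B, against 325 and 315 CPM in het libraries 1A and 1B and 397 and 322 CPM in het libraries 2A and 2B. Its log2 fold change was 0.10 ± 0.18 (95% interval -0.32 to 0.51), with overlapping replicates, and was 0.05 without het library 2A and 0.10 without 2B.

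Zar1l, also on chromosome 5, had point estimates of opposite sign in the lines. It was at 142, 146 and 127 CPM in Padi6 KO replicates 1, 2 and 3, against 159, 150.1 and 158 CPM in Padi6 het replicates 1, 2 and 3, every KO value being lower, as for 12.1% of all genes (log2 fold change -0.15 ± 0.09, edgeR adjusted p = 0.421). With TMM scaling over both lines, Zar1l was at 138.8 CPM in Padi6 KO replicate 2 and 136.2 CPM in Padi6 het replicate 2, so the groups overlapped. In the Tle6 line it was at 90.6, 133 and 177 CPM in KO replicates 1, 2 and 3 and at 114 and 109 CPM in KO libraries 4A and 4B, against 74.99 and 73.0 CPM in het libraries 1A and 1B and 133 and 51.6 CPM in het libraries 2A and 2B. With the technical libraries added, all Tle6 KO replicates were above both het replicates, as for 14.9% of all genes, whereas het library 2A by itself was within the KO range. The log2 fold change in Tle6 KO was 0.57 ± 0.25 (edgeR adjusted p = 0.269), and it was 0.78 without het library 2A and 0.27 without het library 2B. The difference of the 2 effects was 0.67 ± 0.27 (95% interval 0.10 to 1.25, edgeR adjusted p = 0.172), and was not called. It was 0.88 (0.0774) without het library 2A and 0.42 (0.601) without 2B. Without 2B the Tle6 KO and het replicates overlapped.

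Ybx2 (chromosome 11), the germ-cell Y-box protein gene, was at 59.0, 58.0 and 53.1 CPM in Padi6 KO replicates 1, 2 and 3, against 68.7, 65.8 and 74.5 CPM in Padi6 het replicates 1, 2 and 3. The groups did not overlap, as for 12.1% of all genes in this direction, but the log2 fold change of -0.28 ± 0.10 (95% interval -0.50 to -0.05) did not pass after adjustment (edgeR adjusted p = 0.174). Tle6 oocytes had 51.8 to 76.8 CPM in the KO libraries and 25.0 to 64.6 CPM in the het libraries, which overlap (log2 fold change 0.35 ± 0.22, edgeR adjusted p = 0.421). Both extremes of the Tle6 het libraries came from replicate 2, 64.6 CPM in 2A and 25.0 CPM in 2B, and the log2 fold change was 0.53 without 2A and 0.08 without 2B.

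Cpeb1 (chromosome 7), which encodes the cytoplasmic polyadenylation element binding protein, was at 2919.9 to 4401 CPM in the Padi6 KO libraries and 2480.4 to 3661 CPM in the Padi6 het libraries. It averaged 3679 ± 852 CPM in Padi6 KO and 3162 ± 639 CPM in Padi6 het (SD, n = 3 each), a log2 fold change of 0.22 ± 0.19 (95% interval -0.19 to 0.63) that did not pass. Among Tle6 oocytes Cpeb1 was at 6984, 4563 and 5962 CPM in KO replicates 1, 2 and 3 and at 6134 and 6239.5 CPM in KO libraries 4A and 4B. It was at 7617 and 7600.5 CPM in het libraries 1A and 1B, and at 2272 and 7024 CPM in het libraries 2A and 2B. Het library 2A was thus the lowest of all 15 libraries for Cpeb1, and the other 3 het libraries lay above every KO library. The log2 fold change was -0.27 ± 0.24 (edgeR adjusted p = 0.576), -0.56 (0.223) without het library 2A and 0.15 (0.928) without het library 2B, so its sign depended on that replicate.

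Among the repressive partners, Lsm14b (chromosome 2), whose protein is needed for mRNA storage and meiotic maturation in mouse oocytes, was at 592, 752 and 883 CPM in Padi6 KO replicates 1, 2 and 3, against 546, 835 and 727 CPM in Padi6 het replicates 1, 2 and 3. The groups overlapped, with a log2 fold change of 0.11 ± 0.18 (95% interval -0.30 to 0.52). Its level in Tle6 oocytes was 2543, 1530.1 and 2462 CPM in KO replicates 1, 2 and 3 and at 2181 and 2129.9 CPM in KO libraries 4A and 4B, against 3182 and 3091 CPM in het libraries 1A and 1B and 1051 and 2691 CPM in het libraries 2A and 2B. The log2 fold change was -0.42 ± 0.26 (95% interval -1.01 to 0.18, edgeR adjusted p = 0.425), -0.67 without het library 2A and -0.05 without het library 2B.

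Eif4enif1 (chromosome 11), the eIF4E-binding repressor gene, had the smallest p of the 10 in the Tle6 line. It was at 1351, 951 and 1078 CPM in Tle6 KO replicates 1, 2 and 3 and at 1076 and 1074 CPM in KO libraries 4A and 4B. It was at 1330.5 and 1337 CPM in het libraries 1A and 1B and at 1045 and 1962 CPM in het libraries 2A and 2B. With TMM scaling and the technical libraries added, all KO replicates were below both het replicates, as for 14.2% of all genes, but they overlapped without 2B. The mean was 1080.0 ± 205 CPM in Tle6 KO (SD, n = 4) and 1601 ± 279.8 CPM in Tle6 het (SD, n = 2), with a log2 fold change of -0.57 ± 0.22 (95% interval -1.06 to -0.08, unadjusted p = 0.0276, edgeR adjusted p = 0.206). It was -0.85 (adjusted p = 0.133) without het library 2A and -0.16 (0.835) without het library 2B, and a spread shared with the Padi6 line gave -0.61 (0.0399). In the Padi6 line it was at 790.0 to 899.8 CPM in KO and 828 to 933 CPM in het libraries, which overlap (log2 fold change -0.07 ± 0.10, 95% interval -0.31 to 0.16).

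Ddx6 (chromosome 9), the helicase gene, was the least abundant per length, and varied most within the Padi6 het group. It was at 23.9, 25.4 and 29.8 CPM in Padi6 KO replicates 1, 2 and 3, against 13.4, 30.3 and 22.3 CPM in Padi6 het replicates 1, 2 and 3, with a log2 fold change of 0.28 ± 0.25 (95% interval -0.27 to 0.83). Tle6 oocytes had 18.9 to 26.0 CPM in the KO libraries and 9.92 to 32.4 CPM in the het libraries, with a log2 fold change of -0.31 ± 0.25 (95% interval -0.87 to 0.26) that was -0.56 without het library 2A and 0.04 without 2B. Neither comparison passed, and the groups overlapped in both lines.

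Patl2 (chromosome 2), an oocyte-specific repressor gene, had the widest interval in the Tle6 line. It was at 75.8, 123 and 122 CPM in Tle6 KO replicates 1, 2 and 3 and at 56.4 and 56.8 CPM in KO libraries 4A and 4B, against 37.4 and 39.7 CPM in het libraries 1A and 1B and 63.7 and 72.7 CPM in het libraries 2A and 2B. The log2 fold change was 0.63 ± 0.36 (95% interval -0.18 to 1.44, edgeR adjusted p = 0.376), or 0.45 without het library 2A and 0.84 without 2B. The summed granulosa and cumulus markers of the same libraries were 342, 639.5 and 622 CPM in KO replicates 1, 2 and 3 and 338 and 352 CPM in KO libraries 4A and 4B, against 362 and 364 CPM in het libraries 1A and 1B and 607 and 405 CPM in het libraries 2A and 2B. The 2 KO replicates with the highest Patl2 thus had the highest granulosa and cumulus sums of the KO replicates. Their oocyte marker sums were also the highest, at 19775 and 18527 CPM in KO replicates 2 and 3. Those were 16560 CPM in replicate 1 and 17724 and 17528 CPM in 4A and 4B. Het library 2B had more Patl2 than 2A but the lower granulosa and cumulus sum. Serpine2 made up 84.0 to 90.9% of the granulosa and cumulus sum in the Tle6 KO libraries and 86.4 to 88.3% in the Tle6 het libraries, so the sum follows 1 gene. Without Serpine2 it was 50.5 to 63.4 CPM in Tle6 KO and 46.7 to 70.7 CPM in Tle6 het libraries, which overlap. The part of these transcripts in the result was not tested. In the Padi6 line Patl2 was at 92.8 to 101 CPM in KO and 85.9 to 108 CPM in het libraries, the KO range lying within the het range (log2 fold change 0.06 ± 0.11, 95% interval -0.18 to 0.30).

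Set against each other in 1 model, the effects of the 2 knockouts did not differ past the threshold for any of the 10 (edgeR over 21392 genes, of which 4.32% were called). At an unadjusted p under 0.05 there were 4 of 10, Igf2bp3, Zar1l, Ybx2 and Eif4enif1, against 20.7% of all genes. Those of Igf2bp3, Zar1l and Ybx2 were positive, the Tle6 effect being the higher, and that of Eif4enif1 was -0.54 ± 0.24. Without het library 2A there were 7 of 10 at an unadjusted p under 0.05, against 24.2% of all genes, and without 2B there were 0, against 14.5%. The difference for Ybx2 was 0.58 with both libraries, 0.76 without 2A and 0.36 without 2B, and that for Eif4enif1 was -0.83 without 2A and -0.09 without 2B. With both libraries DESeq2 called 1 of 10, Igf2bp3, and limma-voom none.

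The levels of several members differed more between the lines than between KO and het. Between the het oocytes, 6 of 10 passed the test, 3 higher and 3 lower in Padi6 het, where 28.5% of all genes were called (12.7% higher and 15.9% lower). Line, strain background and preparation cannot be told apart in this comparison. Cell type markers differed too, 3 of 10 oocyte markers being higher and 1 lower in Padi6 het, with 1 higher and 1 lower of 10 granulosa and cumulus markers and of 5 theca and stroma markers. The oocyte markers were Nobox (log2 fold change 1.02), Oosp1 (0.78) and Sohlh1, at under 1 CPM in both groups, which were higher, and Bmp15 (-0.44), which was lower. Without het library 2B, 1 oocyte and 1 theca and stroma marker were higher, and 1 granulosa and cumulus and 1 of 3 blood and immune markers were lower. Without 2A, 5 oocyte markers were higher and 1 lower, and 3 granulosa and cumulus markers were higher and 1 lower. The theca and stroma counts without 2A were 1 higher and 1 lower. No blood and immune marker passed with both libraries or without 2A. The part of these in the members' differences was not tested. Lsm14b was lower, at 657 ± 127 CPM in Padi6 het (SD, n = 3) and 3042 ± 764 CPM in Tle6 het (SD, n = 2; TMM scaling over both lines), a fold of 0.216 (log2 fold change -2.21 ± 0.26, edgeR adjusted p = 5.36e-05). Cpeb1 was lower too, at 2982 ± 597 CPM in Padi6 het and 7500.4 ± 1652 CPM in Tle6 het (log2 fold change -1.33 ± 0.24, edgeR adjusted p = 0.00137), as was Eif4enif1, at 838 ± 57.9 CPM in Padi6 het and 1729 ± 298 CPM in Tle6 het (log2 fold change -1.05 ± 0.18, edgeR adjusted p = 0.000972). These 3 encode a regulator of poly(A) tails and 2 repressors of translation.

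The 3 that were higher in Padi6 het were Zar1, Zar1l and Igf2bp3. Zar1 was at 567 ± 23.7 CPM in Padi6 het and 389 ± 32.9 CPM in Tle6 het (log2 fold change 0.55 ± 0.15, edgeR adjusted p = 0.0157), and Zar1l at 146 ± 8.46 CPM in Padi6 het and 89.6 ± 7.29 CPM in Tle6 het (0.70 ± 0.21, edgeR adjusted p = 0.0222). Igf2bp3 was at 66.7 ± 6.94 CPM in Padi6 het and 43.3 ± 3.26 CPM in Tle6 het (0.62 ± 0.17, edgeR adjusted p = 0.016). Ybx2, Ddx6, Patl2 and Igf2bp2 did not pass, with log2 fold changes of 0.37, -0.55, 0.50 and -0.27. In the same order these were 0.54, -0.81, 0.31 and -0.37 without het library 2A, and 0.14, -0.17, 0.75 and -0.15 without 2B.

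Without het library 2B, 2 of these 6 passed, Lsm14b (log2 fold change -1.81, edgeR adjusted p = 0.00729) and Zar1 (0.59, 0.02). Cpeb1 was then at -0.87 (0.164), Eif4enif1 at -0.60 (0.06), Igf2bp3 at 0.46 (0.12) and Zar1l at 0.45 (0.223). Without het library 2A, 7 passed, Ddx6 being added at -0.81 (edgeR adjusted p = 0.0366). Without Tle6 het replicate 1, the 3 lower genes passed and the 3 higher ones did not.

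**Figure D3:**
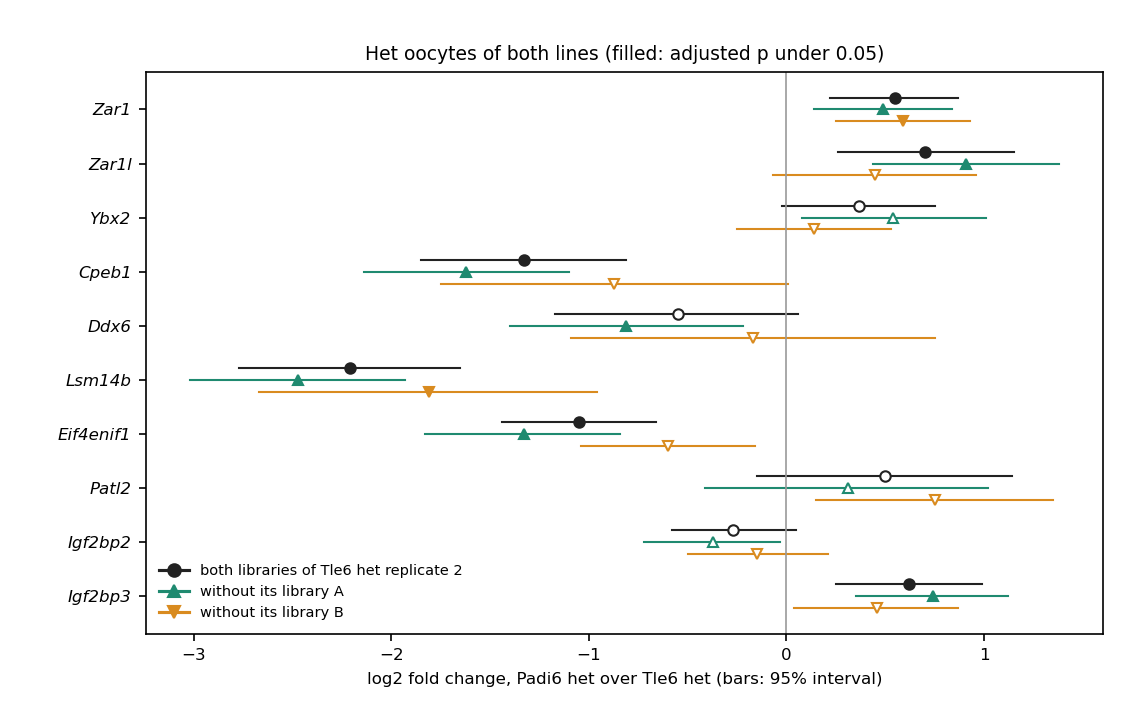
Log2 fold change of each storage transcript in Padi6 het over Tle6 het with both technical libraries of Tle6 het replicate 2, without its library A and without its library B. Bars are 95% intervals, and filled symbols have an adjusted p under 0.05. Lsm14b and Zar1 are filled in all 3 settings, at -2.21 and 0.55 with both libraries.

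The KO oocytes showed a like order for some members. Their replicates were part of the fit behind that contrast, and line, strain background and preparation cannot be told apart among them either. All 3 Padi6 KO replicates were below all 4 Tle6 KO replicates for Lsm14b, Cpeb1 and Eif4enif1, as for 19.4% of all genes, and above them for Zar1, as for 21.1% of all genes. Lsm14b averaged 709 ± 153 CPM in Padi6 KO (SD, n = 3) and 2211 ± 528 CPM in Tle6 KO (SD, n = 4; TMM scaling over both lines). For Zar1l, Ybx2, Ddx6, Patl2, Igf2bp2 and Igf2bp3 the KO replicates of the lines overlapped. Igf2bp3 averaged 46.4 ± 2.03 CPM in Padi6 KO and 48.5 ± 7.58 CPM in Tle6 KO.

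The order of the 4 groups therefore differed between members. For Lsm14b and Cpeb1 it was Tle6 het, Tle6 KO, Padi6 KO and Padi6 het from high to low, and neither the first 2 nor the last 2 separated. For Eif4enif1 it was Tle6 het, Tle6 KO, Padi6 het and Padi6 KO, the last 2 overlapping. For Zar1 it was Padi6 het, Padi6 KO, Tle6 KO and Tle6 het, with overlap between KO and het of each line. Igf2bp3 had Padi6 het highest, at 61.0 to 74.4 CPM, above the 40.2 to 58.6 CPM of Tle6 KO, the 45.1 to 48.7 CPM of Padi6 KO and the 41.0 to 45.6 CPM of Tle6 het, and the lower 3 overlapped, Padi6 KO with Tle6 KO and Padi6 KO with Tle6 het. These orders use both libraries of Tle6 het replicate 2. Lsm14b and Eif4enif1 had the same order without 2A and without 2B, although Tle6 het and Tle6 KO separated for Lsm14b and Cpeb1 without 2A and overlapped for Eif4enif1 without 2B. For Cpeb1, Tle6 KO came first and Tle6 het second without 2B. For Zar1, Tle6 KO was last without 2A, and for Igf2bp3, Tle6 het was second and Padi6 KO last without 2B.

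Within groups, some members moved together from replicate to replicate, a pattern noticed after the values were seen and given as a description. Cpeb1, Lsm14b, Ddx6 and Eif4enif1 were all lowest in Padi6 KO replicate 1, in Padi6 het replicate 1 and in Tle6 KO replicate 2. With TMM scaling over both lines Igf2bp2 was lowest in the same 3 replicates. By library CPM it was lowest in the 2 Padi6 ones, but in Tle6 KO replicate 2 it was 0.05 above the group median on the log2 scale. In the Tle6 het group Cpeb1, Lsm14b, Ddx6 and Igf2bp2 were lower in replicate 2 than in replicate 1, but Eif4enif1 was higher. The first 4 genes named were highest in Padi6 KO replicate 3 and in Tle6 KO replicate 1. Igf2bp3 was highest in the 3 replicates in which those 4 were lowest. Zar1, Zar1l, Ybx2 and Patl2 did not have their lowest value in all 3 of those replicates. How many of all genes shared either order was not counted, so it is not shown to be particular to these members. Within Tle6 het replicate 2, library 2A held 0.323 of the Cpeb1, 0.39 of the Lsm14b, 0.384 of the Ddx6 and 0.533 of the Eif4enif1 level of 2B, but 2.02 times its Igf2bp3, 2.57 times its Zar1l and 2.59 times its Ybx2. Igf2bp2 (1.02), Patl2 (0.875) and Zar1 (1.23) differed by less than 1.5-fold between these libraries. For Cpeb1 the spread between replicates of a group, 1.37- to 1.69-fold, was wider than its fold of 1.16 in Padi6 KO over het and of 0.828 in Tle6 KO over het.

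**Figure D4:**
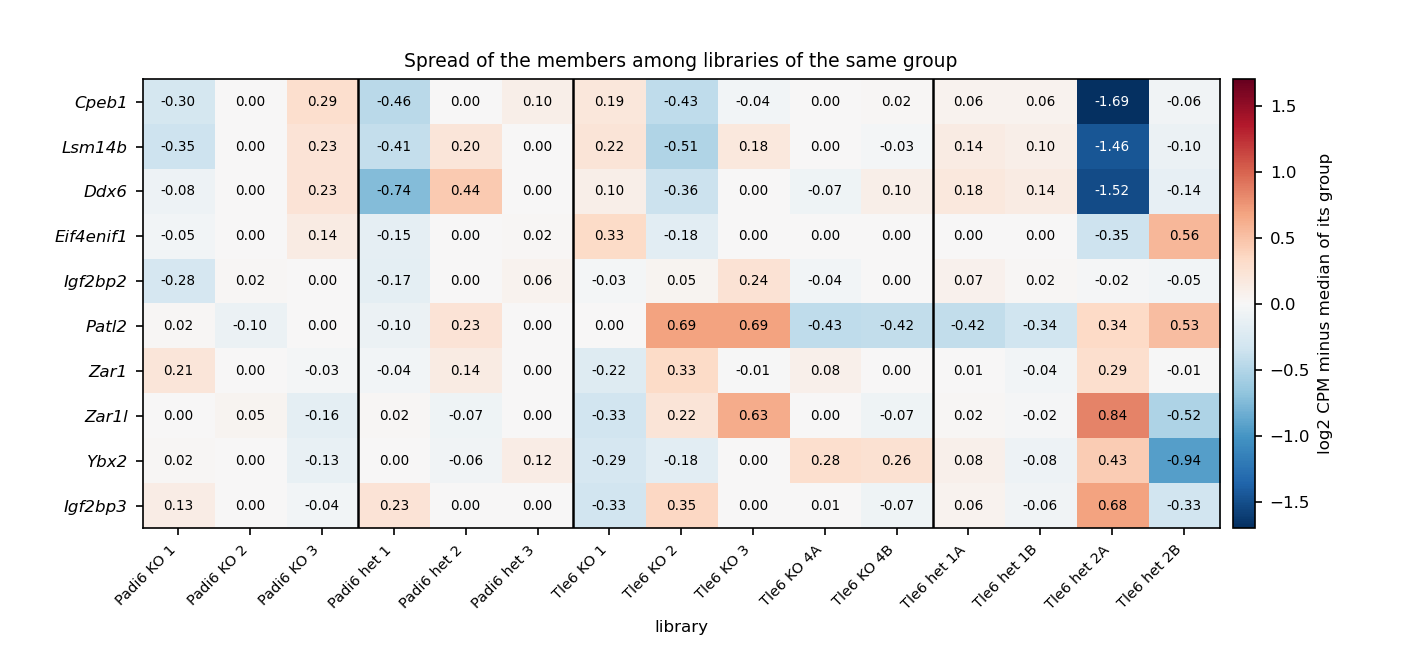
Log2 CPM of each storage transcript in each library minus the median of its group's libraries, red above and blue below. Cpeb1, Lsm14b, Ddx6 and Eif4enif1 are below the group median together in Padi6 KO 1, Padi6 het 1, Tle6 KO 2 and Tle6 het 2A, where Igf2bp3 is above it.

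The wider machinery of mRNA storage was described through 4 further lists of 70 genes. In the Padi6 line, 2 of the 69 that could be tested passed, where 2.41% of all genes were called. Zfp36l2, whose protein binds AU-rich elements and promotes mRNA decay, rose to 52.0, 70.4 and 66.2 CPM in Padi6 KO replicates 1, 2 and 3, against 32.6, 24.4 and 27.1 CPM in Padi6 het replicates 1, 2 and 3 (log2 fold change 1.19 ± 0.16, edgeR adjusted p = 0.00855). Sympk, the gene of symplekin, a scaffold of the polyadenylation machinery, fell to 5.06, 4.92 and 4.55 CPM in Padi6 KO replicates 1, 2 and 3, against 9.57, 10.4 and 7.54 CPM in Padi6 het replicates 1, 2 and 3 (log2 fold change -0.90 ± 0.17, edgeR adjusted p = 0.0318). KO and het did not overlap for either gene, as for 11.4% of all genes with KO higher and 12.1% with KO lower.

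By list in the Padi6 line, 0 of 16 paralogs and cap-binding partners passed (5 at an unadjusted p under 0.05, 1 by DESeq2, 0 by limma-voom; edgeR), with a median log2 fold change of 0.06. Of the cytoplasmic polyadenylation and poly(A)-binding genes 1 of 19 was lower and none higher (0.724% of all genes were called lower; median 0.01), and of the other RNA-binding regulators 1 of 22 was higher and none lower (1.69% of all genes were called higher; median 0.07). Among transcripts known to be stored untranslated in GV oocytes, 0 of 12 passed (3 at an unadjusted p under 0.05, 0 by DESeq2 and by limma-voom; edgeR), with a median of 0.12. The median of all genes was -0.01, and 18.6% of all genes were at an unadjusted p under 0.05.

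For the Tle6 line, 0 of 70 passed edgeR's test, where 1.62% of all genes were called. The count of adjusted calls was 0 without het library 2A and without 2B. At an unadjusted p under 0.05 there were 18, against 19% of all genes. By list these were 4 paralogs and partners, 5 polyadenylation genes, 7 other regulators and 2 stored transcripts. In that order there were 6, 5, 8 and 3 without 2A (22.4% of all genes), and 2, 0, 4 and 0 without 2B (13.5%). DESeq2 called 10 of the 70, where it also called more of all genes, and limma-voom called 0. The medians were -0.08 for the paralogs and cap-binding partners, -0.08 for the polyadenylation genes, -0.05 for the other regulators and -0.22 for the stored transcripts, beside 0.06 for all genes. Without 2A these were -0.13, -0.04, -0.19 and -0.28, beside 0.08, and without 2B they were -0.04, -0.23, -0.06 and -0.07, beside 0.01. In the difference between the knockouts, 3 of 70 passed, where 4.32% of all genes were called. These were Tent2, a cytoplasmic poly(A) polymerase gene (-1.14 ± 0.27, edgeR adjusted p = 0.0324), Cpeb4, a paralog of Cpeb1 (-1.05 ± 0.26, 0.0372), and Dcp2, the decapping enzyme gene (-0.71 ± 0.19, 0.0482), all with the lower effect in Tle6, as for 3.01% of all genes. None of the 3 passed without het library 2B (adjusted p of 0.228, 0.143 and 0.287 in the order named), and all 3 did without 2A. Of the 70, 9 passed without 2A, against 5.77% of all genes, and 0 without 2B, against 1.79%. With both libraries DESeq2 called 9 of the 70, where it also called more of all genes, and limma-voom called 2. Tent2 stood at 115 ± 19.1 CPM in Tle6 KO (SD, n = 4) and 201 ± 63.9 CPM in Tle6 het (SD, n = 2), with 143 and 268 CPM in Tle6 het libraries 2A and 2B. The corresponding means were 91.7 ± 13.2 CPM in Padi6 KO and 74.8 ± 4.67 CPM in Padi6 het (SD, n = 3 each).

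**Figure D5:**
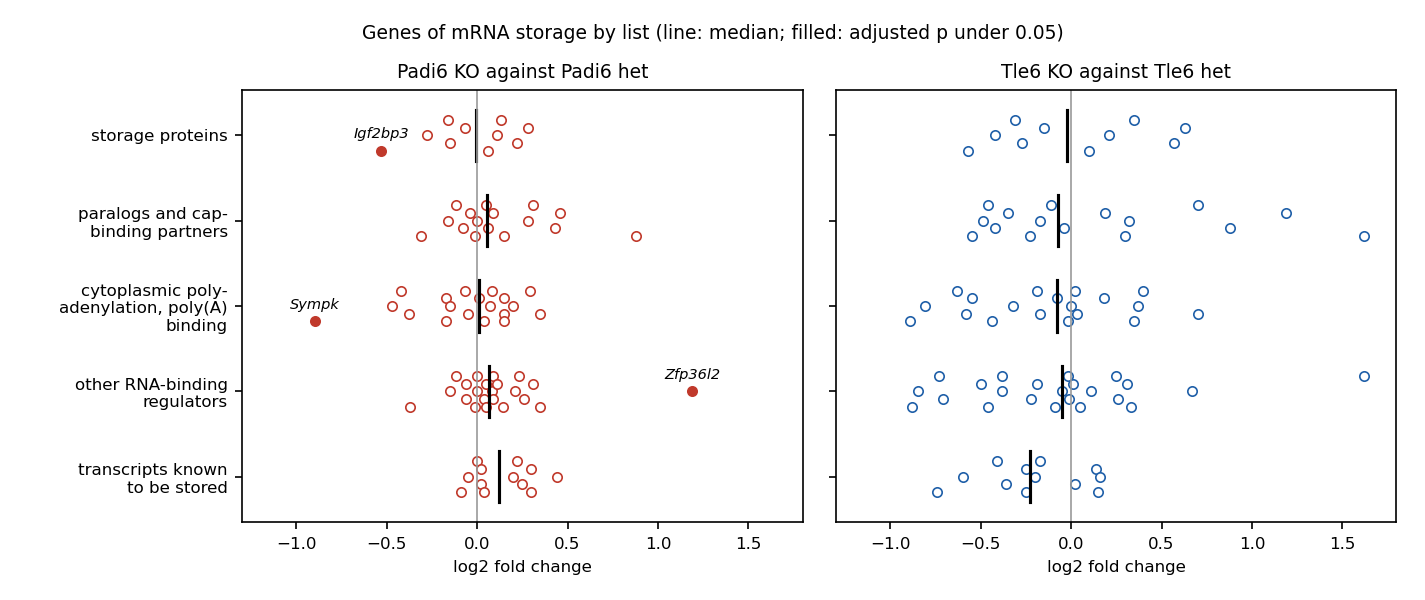
Log2 fold changes of the 10 storage genes and of 4 further lists of mRNA storage in Padi6 KO over Padi6 het (left) and Tle6 KO over Tle6 het (right). Each point is 1 gene, black lines are list medians, and filled points have an adjusted p under 0.05. Igf2bp3, Sympk and Zfp36l2 are filled on the left, at -0.53, -0.90 and 1.19, and no point is filled on the right.

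Between the het groups, 28 of these 70 genes passed, against 28.5% of all genes. In Padi6 het, set against Tle6 het, 6 of 12 stored transcripts were lower and 1 higher. Of the other RNA-binding regulators 7 of 23 were lower and none higher, of the paralogs and cap-binding partners 6 of 16 were lower and 2 higher, and of the polyadenylation genes 4 of 19 were lower and 2 higher. Over all genes 15.9% were lower and 12.7% higher. Without het library 2B, 2 stored transcripts, 2 other regulators, 5 paralogs and partners and 5 polyadenylation genes passed, 14 of 70 in all, against 17.5% of all genes. Without het library 2A the count was 34, against 32.7% of all genes.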

How the data were processed

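Per the labels' protocols, each library held polyadenylated RNA of 15 GV oocytes and was made with a QIAseq FX single-cell kit, so the values measure polyadenylated transcripts and not proteins. The authors deposited whole-number counts of reads per gene for each library, not normalised. The submitters' processing notes name bcl2fastq 2.20.0.422, cutadapt 2.8, STAR 2.7.8a, HTSeq 2.0.2 and mm39, but neither the release of the annotation nor whether counting used strand. Reads with several alignments (12.09 to 14.51% of a library's table), reads outside genes (5.39 to 7.29%) and reads in overlapping genes (3.85 to 4.2%) were deposited apart and stayed out, as did 92 spike-in rows.

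Symbols and exon lengths came from GENCODE M21 on GRCm38 by identifier (52147 of 53700 matched), as did each member's chromosome and the exon bases shared between genes, while no start or end of a gene is given from it. Technical libraries were added, giving 12 biological replicates. Each line was tested by itself with edgeR 4.0.16 (R 4.3.3, filterByExpr, TMM, robust glmQLFit and glmQLFTest, two-sided, Benjamini-Hochberg over all genes tested, threshold 0.05). The difference of effects and the contrast between het groups came from 1 fit of all 12 replicates. The SE is the log2 fold change over the square root of its F. All 10 members passed the filter in every comparison. Library values are CPM of gene counts, and group means use TMM-scaled library sizes. Libraries held 30100177 or more counts each, and the intervals here do not separate counting error from the spread between replicates. The fits were also run on simulated data with known changes. No outcome of that run is given here, so no conclusion about the tests on these replicates is drawn from it.

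Alternatives were other scalings and filters, DESeq2 1.42.0, limma-voom (limma 3.58.1), a replicate block, a shared spread, other uses of the technical libraries, each replicate left out, and, chosen after seeing the data, the principal transcript's length. The members and lists were chosen with earlier results of these data known. Named are all members, Padi6 and Tle6, up to 4 called genes per list and line, and for a called member the 3 genes with the nearest line-centred profile at 10 CPM or more. Tent2, Cpeb4 and Dcp2 were named after their values were seen.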

Additional observations from a re-analysis of the deposited data

Results flagged for a closer look

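The point estimates for Zar1l had opposite signs in the lines, every Padi6 KO replicate lying below every Padi6 het replicate and every Tle6 KO replicate above both Tle6 het replicates, as for 12.1% and 14.9% of all genes. Het library 2A by itself lay within the Tle6 KO range. With TMM scaling over both lines the Padi6 groups overlapped, at 138.8 CPM in KO replicate 2 and 136.2 CPM in het replicate 2. The tested difference was 0.67 on the log2 scale (edgeR adjusted p = 0.172), and 0.42 (0.601) without het library 2B, where the Tle6 effect was 0.27. The effects on Tent2 (difference -1.14), Cpeb4 (-1.05) and Dcp2 (-0.71) passed edgeR's test of the difference between lines, with adjusted p of 0.0324, 0.0372 and 0.0482, as did 4.32% of all genes. None of the 3 passed without het library 2B, at 0.228, 0.143 and 0.287. Spike-in transcripts, which the labels do not mention, had 13772 counts in Padi6 KO replicate 1, 4413 and 4009 in Padi6 KO replicates 2 and 3, and 7116, 7053 and 40 in Padi6 het replicates 1, 2 and 3. The Tle6 libraries had 5 to 45 spike-in counts each, so levels were not scaled to spike-ins.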

How the results depend on the processing

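Of 700 recomputed log2 fold changes of the members, 660 kept their sign and their side of the threshold, 22 lost the threshold, 5 gained it, and 13 changed sign with neither value past it. None that was called changed sign. In the Padi6 line the 440 called genes became 1625 with no filter on low counts, 1322 with DESeq2, 60 with a spread shared by both lines and 61 to 258 with a replicate left out, and the 1 called member became 0 with the shared spread and 0 to 0 with a replicate left out. In the Tle6 line the 329 called genes became 1447 with no filter, 1732 with DESeq2, 2061 with the shared spread, 118 with library A only, 120 without library B of het replicate 2 and 119 to 292 with a replicate left out, and the 0 called members became 1 with the shared spread (Eif4enif1). In the difference the 924 genes became 2078 with no filter, 567 with a mean of at least 5 CPM, 2051 with DESeq2, 369 with library A only, 382 without library B and 405 to 1463 with a replicate left out, and the 0 members became 1 with DESeq2 and 0 to 1 with a replicate left out. Between het groups the 6107 genes became 4047 with at least 5 CPM, 3534 with library A only, 3724 without library B and 3953 to 5192 with a replicate left out, and the 6 members became 2 with library A only, 2 without library B and 3 to 6 with a replicate left out. Where a group had 1 replicate left, it was assumed to vary like the others. The causes of these moves were not tested.

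A replicate block gave 859 called genes and 1 member in the Padi6 line and 57 genes and 0 members in the Tle6 line. Same-numbered Padi6 replicates had deviations correlated at 0.44, 0.05 and 0.23, and KO replicate 3 correlated best with het replicate 2 (0.31), so the numbers were not taken as pairs. Total count scaling moved the median log2 fold change of all genes to 0.22 in the Tle6 line, 0.25 in the difference and 0.34 between het groups, against 0.06, 0.02 and 0.03, and the share of called genes that were higher to 52.3%, 51.5% and 68.6%, against 36.2%, 30.3% and 44.5%.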
